A study of Homo sapiens with 12 samples.

Results

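The genes described here are 10 members of the circadian clock among the 20738 genes of the deposited table: the period genes PER1, PER2 and PER3, the cryptochromes CRY1 and CRY2, the REV-ERB receptors NR1D1 and NR1D2, the output factor DBP, and the paralogs BHLHE40 and BHLHE41. They were chosen by name, and BHLHE41 also because its RNA fell far in UM-SCC-47 cells with JQ1, so that its values in that line are given as a description without a test. RNA was sequenced from 2 cell lines of squamous carcinoma of the head and neck that carry human papillomavirus (HPV). The 4 groups of 3 libraries each were UPCI-SCC-090 with 500 nM JQ1, UPCI-SCC-090 with 0.1% DMSO, UM-SCC-47 with 500 nM JQ1 and UM-SCC-47 with 0.1% DMSO, and all cells were harvested after 72 h. JQ1 is an inhibitor of the BET proteins, which bind acetylated histones through their bromodomains and bring elongation factors to genes, and DMSO is the solvent in which it is given. Each condition is 1 cell line in culture, and nothing says whether the 3 libraries of a group came from separate cultures, so p-values measure the spread between these libraries.

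In the mammalian clock, the proteins CLOCK and BMAL1 pair up, bind the E-box and switch on the genes of their own repressors. PER and CRY proteins then gather in a complex that shuts CLOCK and BMAL1 off, REV-ERB receptors repress the BMAL1 gene, and BHLHE40 and BHLHE41, also known as DEC1 and DEC2, compete for the E-box. DBP carries the rhythm outward by activating genes with a D-box. The cells here were not described as synchronized and were taken at a single time, so a change in the mean level of a clock gene and a change in the phase of a rhythm cannot be told apart, and neither can fewer expressing cells and less RNA per cell.

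Several of these genes hold, close to their start, the short elements that clock factors are known to bind. All 10 members had at least 1 RefSeq promoter window in GRCh38.p14, from 250 bases before to 50 bases after the start, and PER3, CRY2 and NR1D2 had 2. For PER3 and NR1D2 the elements lay in 1 of the 2 windows and the other held none. The stretches below show the elements found there, in capitals, 5′ to 3′ on the strand of the gene. The E-box was searched as CACGTG, the D-box as TTATGTAA, TTACGTAA or TTACATAA, and the ROR element, to which REV-ERB receptors bind, by its consensus, each on both strands.
PER1 E-box, chr17:8152560-8152589, minus strand: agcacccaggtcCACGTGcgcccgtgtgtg
PER2 D-box, chr2:238288595-238288624, minus strand: cccgctgcggcTTACGTAAccgccgccggc
PER3 D-box, chr1:7784103-7784132, plus strand: gagcccgcgcgTTATGTAAcgcgccccggg
NR1D2 E-box, chr3:23945954-23945983, plus strand: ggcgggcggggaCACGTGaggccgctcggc
NR1D2 E-box, chr3:23946004-23946033, plus strand: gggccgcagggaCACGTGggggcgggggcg
BHLHE40 E-box, chr3:4979187-4979216, plus strand: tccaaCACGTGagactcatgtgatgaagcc
BHLHE41 E-box, chr12:26125068-26125097, minus strand: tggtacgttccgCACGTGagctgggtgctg
The same window of NR1D2 also held a D-box and a ROR element. Of 35116 windows in the table, 7.26% held the E-box, 1.01% the D-box and 0.316% the ROR element. Counted by gene, with any window of a gene, the shares of 27305 genes were 8.77%, 1.27% and 0.392%. A further element, the CRE, was searched and found in no window of the members, beside 1.85% of all windows. The letters are a description of these windows and not of bound sites, and the windows of CRY1, CRY2, NR1D1 and DBP held none of these elements.

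Total estimated counts per library were between 20349275 and 30788657. Some libraries favored genes of low or high GC content. The level of a gene, in log2 CPM (counts per library size, scaled by TMM to make libraries comparable) relative to the mean over its line, changed by −0.78 for each step of 10 GC points in replicate 3 of UPCI-SCC-090 JQ1 and by 0.47 in replicate 2 of that group. The change was 0.70 in replicate 2 of UPCI-SCC-090 DMSO, −0.55 in replicate 3 of UM-SCC-47 JQ1, and −0.30 to 0.25 in the remaining libraries. The GC content of the members themselves was lowest in NR1D2 (40.6%), CRY1 (42.7%) and PER3 (45.8%) and highest in PER1 (62.6%) and DBP (60.7%). Ribosomal protein genes held 11.4% to 12.2% of the counts of UPCI-SCC-090 JQ1 libraries, against 4.59% to 6.25% with DMSO. In UM-SCC-47 they held 6.79% to 9.73% with JQ1, against 6.64% to 7.01% with DMSO. The part of either in the results was not tested, beyond the fits with GC correction and without the 3 libraries of the steepest trends (UPCI-SCC-090 JQ1 replicate 3, UPCI-SCC-090 DMSO replicate 2 and UM-SCC-47 JQ1 replicate 3, called the steep libraries here) that are given with the members. The 8 epithelial markers summed to 4253 to 6278 CPM in UPCI-SCC-090 with JQ1, against 3511 to 4235 CPM with DMSO, and to 36714 to 54590 CPM in UM-SCC-47 with JQ1, against 9404 to 10821 CPM with DMSO. KRT8 and KRT18 carried the sum in UM-SCC-47, at means of 27842 and 15490 CPM with JQ1, against 5527 and 2226 CPM with DMSO. KRT14 (251 and 115 CPM), SFN (580 and 412 CPM) and EPCAM (130 and 105 CPM) also had higher means with JQ1 than with DMSO there. TP63 (48.5 and 391 CPM), KRT5 (172 and 607 CPM) and CDH1 (675 and 741 CPM) had lower means with JQ1 than with DMSO there. In UPCI-SCC-090 KRT5 (8.84 and 7.995 CPM) and KRT14 (0.872 and 1.24 CPM) were low with JQ1 and with DMSO. CDH1 (1710 and 908 CPM), SFN (1299 and 525 CPM), EPCAM (265 and 198 CPM) and KRT8 (1408 and 1377 CPM) had higher means with JQ1 there. TP63 (237 and 615 CPM) and KRT18 (201 and 253 CPM) had lower means with JQ1. The 5 fibroblast markers, mostly COL1A1, summed to 2.69 to 5.47 CPM in UPCI-SCC-090 with JQ1, against 17.4 to 29.2 CPM with DMSO, and to 4.95 to 6.07 CPM in UM-SCC-47 with JQ1, against 12.8 to 14.9 CPM with DMSO. The 6 lymphoid and myeloid markers, mostly CD68, summed to 6.29 to 12.4 CPM in UPCI-SCC-090 with JQ1, against 6.22 to 8.58 CPM with DMSO, and to 27.8 to 38.7 CPM in UM-SCC-47 with JQ1, against 40.8 to 46.2 CPM with DMSO. The 2 endothelial markers matched of 3, CDH5 and VWF, summed to 0.0384 to 0.242 CPM in UPCI-SCC-090 with JQ1, against 0.549 to 0.700 CPM with DMSO, and to 2.12 to 3.20 CPM in UM-SCC-47 with JQ1, against 7.72 to 8.09 CPM with DMSO. Both blood markers together stayed at or under 0.527 CPM, LUM was at or near 0 throughout, and the B cell marker MS4A1 was at 0 in every library. The part of the genes on these lists in the results was not tested.

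**Figure D1:**
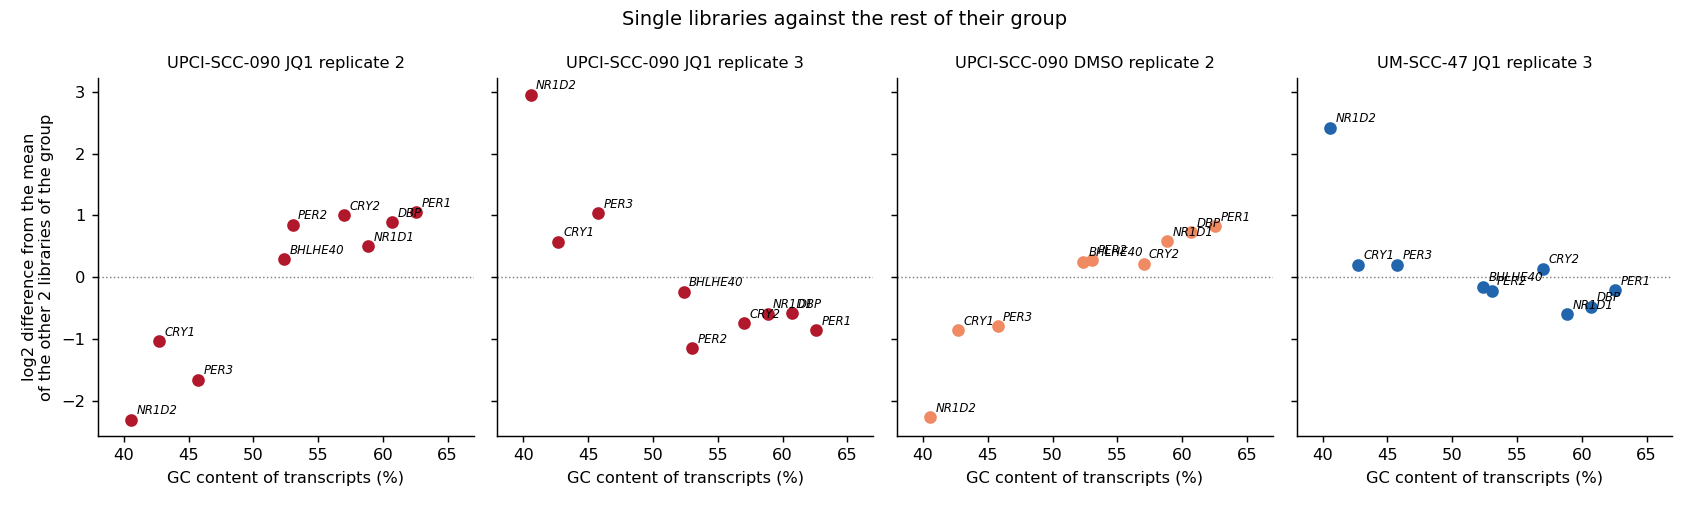
Each point is 1 of the 9 members other than BHLHE41, with the GC content of its transcripts in percent on the x axis and, on the y axis, the log2 difference of its level in the named library from the mean of the other 2 libraries of the group. NR1D2, the member with the lowest GC content, stood at 2.95 in UPCI-SCC-090 JQ1 replicate 3, 2.42 in UM-SCC-47 JQ1 replicate 3, −2.31 in UPCI-SCC-090 JQ1 replicate 2 and −2.27 in UPCI-SCC-090 DMSO replicate 2.

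With DMSO, BHLHE40 was the highest member per kb of annotated exon in UM-SCC-47, while in UPCI-SCC-090 CRY1 and PER3 were highest and overlapped. Of the 9 members other than BHLHE41, 2 were lower and 1 was higher in UPCI-SCC-090 at an adjusted p under 0.05 (edgeR's quasi-likelihood test, Benjamini-Hochberg adjustment over 14108 genes), while 25.3% of all genes were lower and 22.7% higher. The median log2 difference of the 9 was 0.40, beside −0.01 over all genes tested. Without UM-SCC-47 DMSO replicate 1 or 3 only 1 of the 9 passed, which was BHLHE40. NR1D1, at 0.73 ± 0.26, missed the threshold narrowly (adjusted p = 0.051). PER1, at 0.62 ± 0.28, missed it as well (adjusted p = 0.11) and passed without UPCI-SCC-090 DMSO replicate 1 (0.0156). NR1D2 passed without UPCI-SCC-090 DMSO replicate 2, at 1.10 (adjusted p = 0.00805), against 0.64 ± 0.59 with all libraries. This comparison shares its DMSO libraries with the comparisons of JQ1 and DMSO.

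Exon length here was the union of all annotated exons of a gene, 6485 bases for DBP and 2630 bases for NR1D1. A gene whose RNA is shorter than that union is placed too low, so the order also depends on the annotation. On the scale of CPM per kb of exon, the order in UPCI-SCC-090 with DMSO was CRY1 at 6.33 ± 2.21, PER3 at 6.25 ± 3.14, NR1D1 at 4.81 ± 1.25 and BHLHE40 at 4.5 ± 0.46 (SD, n = 3 each). These were followed by DBP at 3.96 ± 1.35, NR1D2 at 3.87 ± 2.50, CRY2 at 2.27 ± 0.36, PER1 at 1.76 ± 0.64, PER2 at 1.02 ± 0.12 and BHLHE41 at 0.0104 ± 0.0115. Neighbors from CRY1 down to PER1 overlapped in their libraries, and PER2 and BHLHE41 stood below. In UM-SCC-47 with DMSO BHLHE40 led at 41.3 ± 2.04, above CRY1 at 6.95 ± 0.55 and PER3 at 4.30 ± 0.59, with no overlap between these. BHLHE41 at 2.81 ± 0.48, NR1D1 at 2.56 ± 0.33, NR1D2 at 2.29 ± 0.66, CRY2 at 1.84 ± 0.36 and DBP at 1.64 ± 0.13 each overlapped the next. PER2 at 1.51 ± 0.02 followed DBP, and PER1 at 1.01 ± 0.06 was lowest, with no overlap with PER2.

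**Figure D2:**
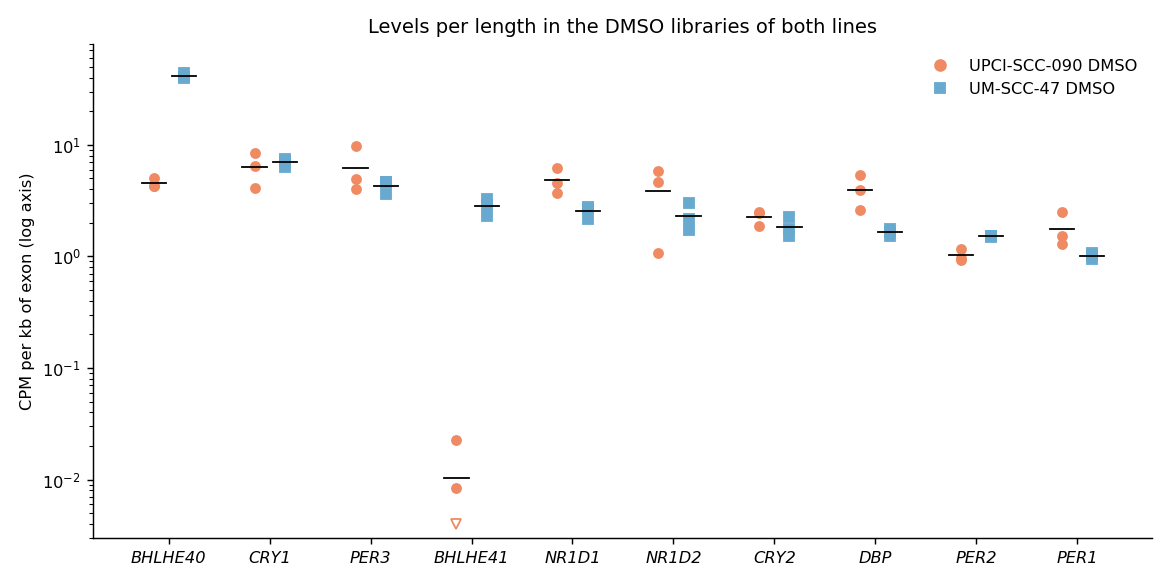
Levels of the 10 members in CPM per kb of exon (log axis) in the 3 DMSO libraries of UPCI-SCC-090 (circles) and of UM-SCC-47 (squares), with bars at the means and an open triangle for a library at 0. BHLHE40 stood at a mean of 4.5 in UPCI-SCC-090 and 41.3 in UM-SCC-47, and BHLHE41 was almost without counts in UPCI-SCC-090.

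With JQ1, PER2 and NR1D1 fell in both lines. The share of all genes that fell in both lines is not given here, nor the share whose groups did not overlap. In UPCI-SCC-090, 3 of the 9 members other than BHLHE41 fell (PER1, PER2 and NR1D1) and 0 rose, where 20.4% of 13150 genes fell and 7.67% rose. The 0 does not mean that no member was higher: CRY1, CRY2, NR1D2 and BHLHE40 had positive log2 fold changes whose adjusted p missed the threshold, none had an unadjusted p under 0.05, and DESeq2 also called 0 higher. The count depended on the libraries: it was 0 of 9 without UPCI-SCC-090 JQ1 replicate 1, and 7 of 9 with GC correction, when CRY2, BHLHE40 and DBP passed as higher and PER3 as lower. The calls over all genes moved too, to 7.52% lower and 2.76% higher without that library and to 23.8% lower and 26.3% higher with GC correction. In UM-SCC-47, 4 of the 9 fell (PER2, PER3, NR1D1 and BHLHE40) and 2 rose (CRY1 and CRY2), where 25.5% of 13440 genes fell and 16.1% rose. That contrast was the one in which BHLHE41 was noticed. The median log2 fold change of the 9 was −0.18 in UPCI-SCC-090, beside −0.14 over all genes, and −0.56 in UM-SCC-47, beside −0.03.

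**Figure D3:**
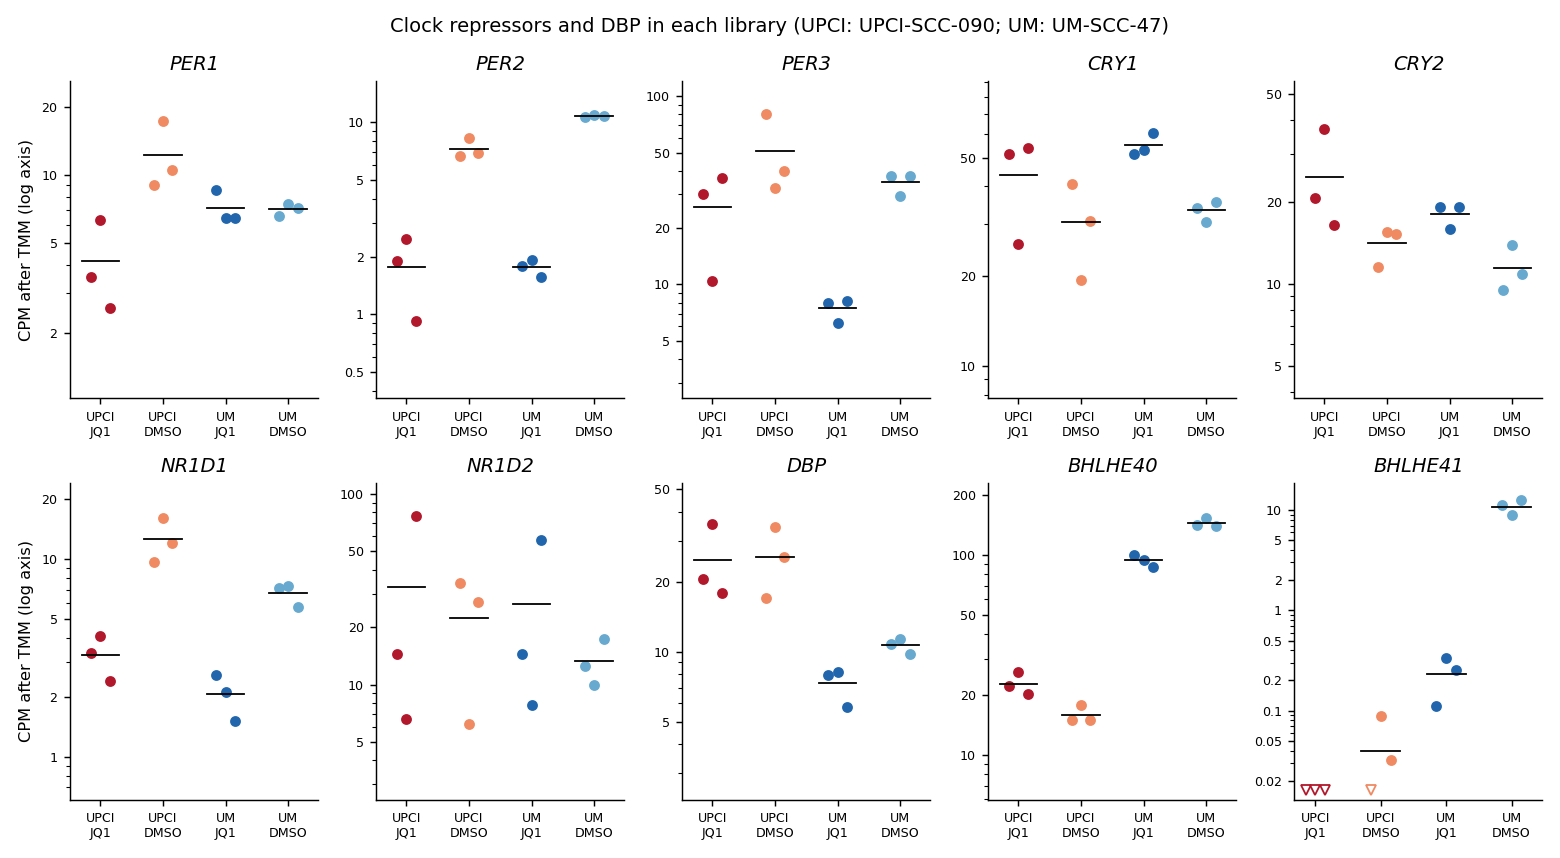
Level of each member in every library, in CPM after TMM scaling on a log axis, with JQ1 left of DMSO in each line, bars at the means of 3 libraries and open triangles for libraries at 0. PER2 and NR1D1 were lower in every JQ1 library than in every DMSO library of the same line, and NR1D2 spread from 6.63 to 76.4 CPM within the 3 UPCI-SCC-090 JQ1 libraries.

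The period genes encode the limiting partners of the repressor complex. PER2 (ENSG00000132326, chromosome 2, 239152685 to 239198743 on the minus strand of GRCh37) is the period protein on which assembly of the complex depends most in mice, together with PER1. PER2 had 1.89, 2.47 and 0.921 CPM in the UPCI-SCC-090 JQ1 libraries, against 6.62, 8.23 and 6.88 CPM with DMSO. In UM-SCC-47 it had 1.78, 1.91 and 1.57 CPM with JQ1, against 10.6, 10.9 and 10.8 CPM with DMSO. The groups did not overlap in either line. The log2 fold change of PER2 was −2.19 ± 0.37 (SE) in UPCI-SCC-090, with an adjusted p of 0.0073, and −2.62 ± 0.18 in UM-SCC-47, with an adjusted p of 2.2e-04. Without UPCI-SCC-090 JQ1 replicate 1, the adjusted p in that line was 0.0671 at a log2 fold change of −2.09. Without the steep libraries the log2 fold change was −1.59 in UPCI-SCC-090 (adjusted p = 0.0363) and −2.43 in UM-SCC-47. With DMSO PER2 was also lower in UPCI-SCC-090, at a UPCI-SCC-090 over UM-SCC-47 log2 difference of −0.74 ± 0.21 and an adjusted p of 0.023. That call was lost in 10 of 16 alternatives, including each of 5 fits without a single library: the adjusted p was 0.0605 and 0.194 without UPCI-SCC-090 DMSO replicates 1 and 3, and 0.101, 0.0904 and 0.0906 without UM-SCC-47 DMSO replicates 1, 2 and 3.

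PER3 (ENSG00000049246, chromosome 1, 7844351 to 7905237 on the plus strand) is the period gene that the rhythm of mice can do without. PER3 had 7.99, 6.24 and 8.14 CPM in UM-SCC-47 with JQ1, against 37.5, 29.4 and 37.8 CPM with DMSO, a log2 fold change of −2.24 ± 0.20 with an adjusted p of 4.3e-04. In UPCI-SCC-090 it had 30.3, 10.5 and 36.6 CPM with JQ1, against 79.98, 32.5 and 39.9 CPM with DMSO. These groups overlapped, and the log2 fold change of −1.05 ± 0.63 missed the threshold (adjusted p = 0.27). With GC correction it was −1.09 ± 0.36 and passed, with an adjusted p of 0.0438. PER3 shares its locus with UTS2 on the other strand, which a stranded count can keep apart.

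PER1 (ENSG00000179094, chromosome 17, 8043790 to 8059824 on the minus strand), the period gene that also answers to glucocorticoids and cAMP, fell in one line. PER1 had 3.53, 6.34 and 2.57 CPM in UPCI-SCC-090 with JQ1, against 9.01, 17.4 and 10.6 CPM with DMSO, so that all JQ1 libraries were lower. In UM-SCC-47 the libraries overlapped, with 8.58, 6.46 and 6.42 CPM with JQ1 and 6.602, 7.45 and 7.15 CPM with DMSO. The log2 fold change was −1.71 ± 0.41 in UPCI-SCC-090 (adjusted p = 0.023) and 0.01 ± 0.19 in UM-SCC-47 (adjusted p = 0.99), where the interval of 95% ran from −0.45 to 0.46. The difference between the lines, UPCI-SCC-090 minus UM-SCC-47, was −1.59 ± 0.52 and did not pass (adjusted p = 0.098). The fall was sensitive to single libraries of UPCI-SCC-090: its adjusted p was 0.173 and 0.103 without JQ1 replicates 1 and 3, 0.0699 and 0.0623 without DMSO replicates 2 and 3, 0.0784 with RLE size factors, and 0.184 at a log2 fold change of −0.96 without the steep libraries. With GC correction it was −0.84 ± 0.17 (adjusted p = 0.00723), and the difference between the lines then passed at −1.23 ± 0.22 (adjusted p = 0.00274). The difference also passed without UPCI-SCC-090 DMSO replicate 1 (0.0355), UPCI-SCC-090 JQ1 replicate 2 (0.0169) or UM-SCC-47 JQ1 replicate 3 (0.0427). PER1 overlaps ENSG00000263620 on its own strand, and reads of the overlap could belong to either.

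The cryptochromes, the partners of the period proteins, rose in UM-SCC-47. CRY1 (ENSG00000008405, chromosome 12, 107385142 to 107487327 on the minus strand) is the stronger repressor of the pair. It had 51.6, 53.2 and 60.3 CPM in UM-SCC-47 with JQ1, against 34.0, 30.3 and 35.4 CPM with DMSO, and rose with a log2 fold change of 0.71 ± 0.14 (adjusted p = 0.0068), a call that held in 15 of 16 alternatives and was lost in a fit over all 12 libraries (0.12). In UPCI-SCC-090 CRY1 had 51.4, 25.6 and 53.9 CPM with JQ1, against 40.6, 19.5 and 30.7 CPM with DMSO. Replicate 2 of both groups was lowest, the groups overlapped, and the log2 fold change of 0.45 ± 0.47 missed the threshold (adjusted p = 0.55, interval of 95% from −0.69 to 1.58).

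CRY2 (ENSG00000121671, chromosome 11, 45868669 to 45904799 on the plus strand) had 19.1, 15.9 and 19.2 CPM in UM-SCC-47 with JQ1, against 9.50, 13.9 and 10.9 CPM with DMSO. It rose with a log2 fold change of 0.65 ± 0.20 that lay close to the threshold (adjusted p = 0.042). The call was lost in 7 of 16 alternatives, among them those without DMSO replicate 1 (adjusted p = 0.162), DMSO replicate 3 (0.14) or JQ1 replicate 1 (0.116). In UPCI-SCC-090 CRY2 had 20.7, 37.1 and 16.5 CPM with JQ1, against 11.5, 15.5 and 15.3 CPM with DMSO. All JQ1 libraries were higher there, but the log2 fold change of 0.67 ± 0.32 missed the threshold (adjusted p = 0.18). With GC correction it was 1.19 ± 0.16 and passed (adjusted p = 0.00138).

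The REV-ERB receptors are nuclear receptors that bind heme and recruit corepressors. NR1D1 (ENSG00000126368, chromosome 17, 38249046 to 38256842 on the minus strand) had 3.34, 4.07 and 2.42 CPM in UPCI-SCC-090 with JQ1, against 9.71, 16.2 and 12.1 CPM with DMSO. Levels in UM-SCC-47 were 2.60, 2.14 and 1.52 CPM with JQ1, against 7.11, 7.33 and 5.71 CPM with DMSO. Neither pair of groups overlapped. The log2 fold change of NR1D1 was −2.07 ± 0.32 in UPCI-SCC-090 (adjusted p = 0.0056) and −1.70 ± 0.25 in UM-SCC-47 (adjusted p = 0.0028). With GC correction the values were −1.39 ± 0.17 and −1.39 ± 0.18, and both calls held. In UPCI-SCC-090 the adjusted p was 0.0628 without JQ1 replicate 1 and 0.0429 without the steep libraries. NR1D1 overlaps THRA on the other strand.

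NR1D2 (ENSG00000174738, chromosome 3, 23986777 to 24022108 on the plus strand), the only member with both a pair of E-boxes and a ROR element in a window, gave no readable response. NR1D2 had 14.4, 6.63 and 76.4 CPM in UPCI-SCC-090 with JQ1, against 34.0, 6.21 and 27.0 CPM with DMSO. UM-SCC-47 cells had 14.5, 7.81 and 57.4 CPM with JQ1, against 12.5, 9.89 and 17.4 CPM with DMSO. A single library, replicate 3 of the JQ1 group, was far above the others in each line. The log2 fold change was 0.54 ± 1.07 in UPCI-SCC-090 (adjusted p = 0.76) and 0.99 ± 0.72 in UM-SCC-47 (adjusted p = 0.31). Without JQ1 replicate 3 it was −1.15 in UPCI-SCC-090 (adjusted p = 0.326) and −0.14 in UM-SCC-47 (adjusted p = 0.735), the opposite sign. At an interval of 95% from −2.02 to 3.09 in UPCI-SCC-090 these libraries do not fix the direction of NR1D2, which overlaps NKIRAS1 on the other strand.

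DBP (ENSG00000105516, chromosome 19, 49133287 to 49140636 on the minus strand) is a leucine zipper activator whose RNA in many tissues swings with CLOCK and BMAL1. DBP had 20.6, 35.6 and 18.0 CPM in UPCI-SCC-090 with JQ1, against 17.0, 34.5 and 25.5 CPM with DMSO. In UM-SCC-47 it had 7.95, 8.21 and 5.76 CPM with JQ1, against 10.8, 11.4 and 9.77 CPM with DMSO. The groups overlapped in UPCI-SCC-090 and did not in UM-SCC-47. The log2 fold change was −0.18 ± 0.35 (adjusted p = 0.75) in UPCI-SCC-090, and −0.56 ± 0.20 (adjusted p = 0.065) in UM-SCC-47. The sign in UPCI-SCC-090 turned with the scaling, to 0.12 with RLE size factors, which moved the median of all genes by 0.28 there, and to 0.60 with GC correction (adjusted p = 0.0145). It also turned without DMSO replicate 2 (0.06) or JQ1 replicates 1 and 3 (0.08 and 0.12). In UM-SCC-47 DBP passed without JQ1 replicate 2, at −0.64 (adjusted p = 0.0488). With DMSO DBP was the higher in UPCI-SCC-090, at a log2 difference of 1.09 ± 0.28 and an adjusted p of 0.014. That call was lost without UM-SCC-47 DMSO replicate 1 (0.0613) or 3 (0.071). DBP overlaps SPHK2 on the other strand.

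The BHLHE pair, basic helix-loop-helix repressors, differed in level between the lines and with JQ1 in UM-SCC-47. BHLHE41 (ENSG00000123095, chromosome 12, 26272963 to 26277970 on the minus strand) had estimated counts of 3, 6 and 5 in UM-SCC-47 with JQ1, against 350, 235 and 286 with DMSO. This was 0.111, 0.337 and 0.253 CPM with JQ1, against 11.2, 8.84 and 12.5 CPM with DMSO. The fitted log2 fold change was −5.57 ± 0.40, and the ratio of the summed counts, 14 with JQ1 and 871 with DMSO, scaled by depth, was 49.6-fold lower with JQ1 (95% interval 29.4 to 91.1, counting error only). Over 16 alternatives the log2 fold change lay between −5.92 and −5.18. In UPCI-SCC-090 BHLHE41 had 0 counts in all 3 libraries with JQ1, which allows up to 0.0404 CPM over the group, and 0, 2 and 1 counts with DMSO. The line was therefore near or at the floor of detection with DMSO alone, and a response there was not detectable at this depth. Between the DMSO groups, 3 counts in UPCI-SCC-090 and 871 in UM-SCC-47 gave a level 301-fold lower in UPCI-SCC-090 (95% interval 103 to 1463, counting error only), a description too, since the UM-SCC-47 DMSO level is part of the contrast that chose the gene. BHLHE41 overlaps SSPN on the other strand.

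BHLHE40 (ENSG00000134107, chromosome 3, 5021122 to 5027008 on the plus strand), the paralog that hypoxia and many other signals induce, was present in both lines at unlike levels. With DMSO BHLHE40 had 14.9, 17.7 and 14.9 CPM in UPCI-SCC-090 and 142, 153 and 140 CPM in UM-SCC-47, a log2 difference of −3.37 ± 0.17 with an adjusted p of 9.2e-06. This difference held in all 16 alternatives, between −3.41 and −3.15. With JQ1 BHLHE40 had 22.0, 25.9 and 20.2 CPM in UPCI-SCC-090, all above the 3 DMSO libraries, but the log2 fold change of 0.41 ± 0.25 missed the threshold (adjusted p = 0.28) and passed at 0.72 with GC correction (adjusted p = 0.00741). UM-SCC-47 libraries had 100.03, 94.9 and 87.2 CPM with JQ1, all below the DMSO libraries, and BHLHE40 fell by 0.64 ± 0.11 on the log2 scale (adjusted p = 0.0046). The fall in UM-SCC-47 held in all 16 alternatives, between −0.89 and −0.44. Since BHLHE41 was chosen for its own fall in this contrast, no test compares the paralogs. Per kb of exon, BHLHE41 made up 0.102% to 0.323% of the sum of both in UM-SCC-47 with JQ1, against 5.00% to 7.52% with DMSO, and the sum was 24.9 to 28.5 CPM per kb with JQ1, against 43.1 to 45.9 with DMSO.

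**Figure D4:**
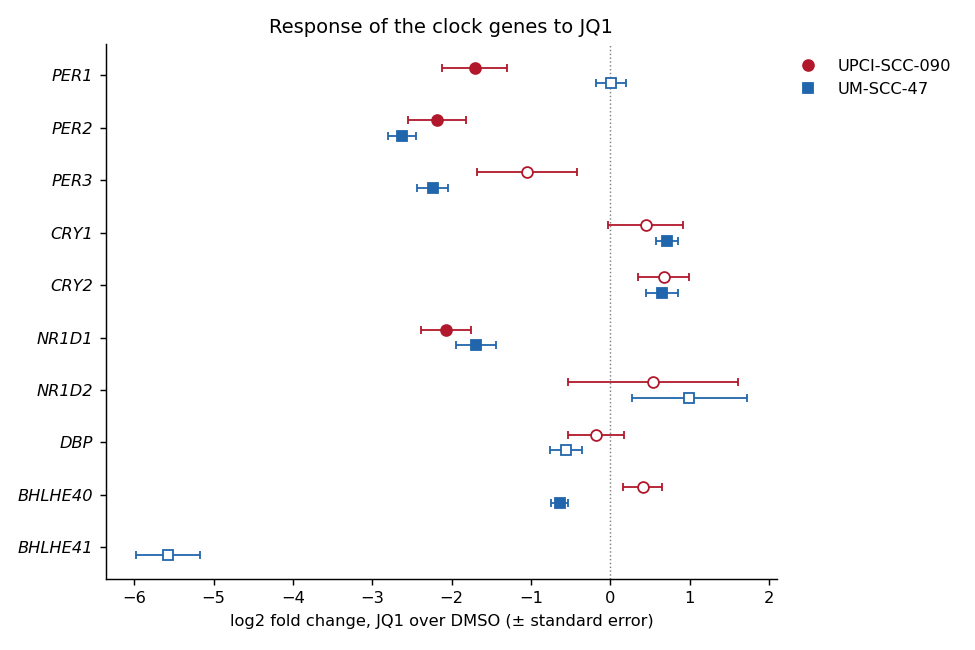
Log2 fold change of each member, JQ1 over DMSO, with bars of 1 standard error, for UPCI-SCC-090 (circles) and UM-SCC-47 (squares). Filled marks passed an adjusted p of 0.05 in edgeR, open marks did not or, for BHLHE41, were not tested, and BHLHE41 has no mark in UPCI-SCC-090, where it was under the filter. PER2 and NR1D1 lie left of 0 in both lines, and BHLHE40 lies at 0.41 in UPCI-SCC-090 and −0.64 in UM-SCC-47.

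Whether the lines differed in response was tested by the interaction of line and treatment over the 12 libraries. BHLHE40 was the 1 member of 9 that passed, where 6.56% of 14396 genes did. UPCI-SCC-090 minus UM-SCC-47, its log2 fold changes differed by 1.14 ± 0.25 (adjusted p = 0.020). The call was lost with RLE size factors (0.0544), without the steep libraries (0.058), and without UPCI-SCC-090 DMSO replicate 3 (0.051), UM-SCC-47 JQ1 replicate 1 (0.0565) or UM-SCC-47 DMSO replicates 1, 2 or 3 (0.0655, 0.0701 and 0.0607), while the difference itself stayed between 0.92 and 1.30. For PER2 the difference was 0.57 with an interval of 95% from −0.44 to 1.57, and for NR1D1 it was −0.27 with an interval from −1.24 to 0.71, so that these libraries do not show that either gene answered alike. The difference of PER3, at 1.25 ± 0.63, did not pass (adjusted p = 0.31). CRY1, CRY2, NR1D2 and DBP had differences of −0.20, 0.15, −0.47 and 0.49 that did not pass, though DBP passed with GC correction at 0.82 (adjusted p = 0.0108).

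The 24 partners of the members, activators, ROR receptors, kinases, ubiquitin ligases, corepressors and further outputs, were followed as the rest of the pathway. Of these 22 were tested in UPCI-SCC-090, where 2 fell and 1 rose beside 20.4% and 7.67% of all genes, and 20 in UM-SCC-47, where 4 fell and 2 rose beside 25.5% and 16.1%. The median log2 fold change was 0.17 in UPCI-SCC-090 and 0.27 in UM-SCC-47, beside the medians over all genes of −0.14 and −0.03.

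NPAS2 and CIART fell in both lines, for which no share over all genes is given here. NPAS2, a paralog of CLOCK that can take its place beside BMAL1, had 5.34, 8.71 and 4.49 CPM in UPCI-SCC-090 with JQ1, against 16.0, 23.2 and 15.2 CPM with DMSO, a log2 fold change of −1.69 ± 0.33 (adjusted p = 0.012). In UM-SCC-47 NPAS2 had 1.75, 2.02 and 2.12 CPM with JQ1, against 3.54, 3.57 and 4.71 CPM with DMSO, a log2 fold change of −1.02 ± 0.21 (adjusted p = 0.0094). The call in UPCI-SCC-090 was lost without JQ1 replicate 1 (0.133) or 3 (0.0702), with RLE size factors (0.0536) and without the steep libraries (0.113). CIART, a repressor of CLOCK and BMAL1 also called CHRONO, had 7.63, 7.70 and 4.91 CPM in UPCI-SCC-090 with JQ1, against 8.78, 17.6 and 15.5 CPM with DMSO. In UM-SCC-47 it had 0.892, 1.41 and 0.657 CPM with JQ1, against 4.82, 5.23 and 6.63 CPM with DMSO. The fall of CIART in UM-SCC-47 was −2.51 ± 0.32 (adjusted p = 0.0016) and was called in all 16 alternatives. In UPCI-SCC-090 it was −1.16 ± 0.34 at the edge of the threshold (adjusted p = 0.047) and was lost in 11 of 16 alternatives, without DMSO replicates 2 (0.145) and 3 (0.155) and JQ1 replicates 1, 2 and 3 (0.223, 0.0859 and 0.196) among them. The difference between the lines did not pass for NPAS2 (−0.55 ± 0.44, adjusted p = 0.58) or CIART (1.45 ± 0.51, adjusted p = 0.13). That of CIART passed with GC correction, at 1.43 (adjusted p = 0.0215).

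WEE1 and TEF fell in UM-SCC-47. WEE1, the kinase that holds back entry into mitosis and an E-box target in mouse liver, had 40.2, 32.2 and 37.1 CPM in UPCI-SCC-090 with JQ1, against 66.0, 45.7 and 48.5 CPM with DMSO, a log2 fold change of −0.65 ± 0.30 that missed the threshold (adjusted p = 0.16). In UM-SCC-47 WEE1 had 19.5, 17.8 and 21.8 CPM with JQ1, against 55.3, 54.6 and 59.3 CPM with DMSO, and fell by 1.53 ± 0.14 on the log2 scale (adjusted p = 4.9e-04). TEF, a relative of DBP, fell by 1.02 ± 0.20 in UM-SCC-47 (adjusted p = 0.0079), with 17.9, 21.5 and 14.3 CPM with JQ1, against 36.7, 39.9 and 31.3 CPM with DMSO. In UPCI-SCC-090 TEF had 25.4, 39.6 and 23.2 CPM with JQ1, against 23.0, 38.3 and 32.3 CPM with DMSO, which overlapped, at −0.21 ± 0.29 (adjusted p = 0.65). The differences between the lines did not pass for WEE1 (0.97 ± 0.30, adjusted p = 0.080) or TEF (0.92 ± 0.41, adjusted p = 0.24). That of WEE1 passed without UPCI-SCC-090 DMSO replicate 1 (0.0473) or JQ1 replicate 2 (0.0373), and that of TEF with GC correction, at 1.07 (adjusted p = 0.00229).

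TSC22D3, a glucocorticoid-induced leucine zipper gene, rose in UPCI-SCC-090. It had 12.9, 17.0 and 11.4 CPM in UPCI-SCC-090 with JQ1, against 2.49, 4.73 and 5.10 CPM with DMSO, a log2 fold change of 1.63 ± 0.35 (adjusted p = 0.016). UM-SCC-47 cells had 60.2, 73.8 and 49.6 CPM with JQ1, against 64.5, 70.3 and 68.0 CPM with DMSO, and the log2 fold change of −0.16 ± 0.17 missed the threshold (adjusted p = 0.49). Its response was higher in UPCI-SCC-090 by 1.89 ± 0.41 (adjusted p = 0.020). The rise in UPCI-SCC-090 was lost without JQ1 replicate 1 (0.0678), and the difference without UM-SCC-47 JQ1 replicate 1 (0.0649) or DMSO replicates 1, 2 or 3 (0.0551, 0.0577 and 0.0588).

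CSNK1D, the kinase casein kinase 1 delta that marks PER proteins for decay, and HDAC3, the deacetylase that REV-ERB receptors recruit, rose in UM-SCC-47 by small steps. CSNK1D had 198, 201 and 168 CPM with JQ1, against 127, 156 and 136 CPM with DMSO (log2 fold change 0.43 ± 0.13, adjusted p = 0.042). HDAC3 had 148, 202 and 134 CPM with JQ1, against 110, 108 and 99.1 CPM with DMSO (0.59 ± 0.17, adjusted p = 0.035). Both calls were fragile. That of CSNK1D was lost in 8 of 16 alternatives, with adjusted p of 0.122 and 0.0592 without JQ1 replicates 1 and 2 and of 0.176, 0.0503 and 0.141 without DMSO replicates 1, 2 and 3. That of HDAC3 was lost in 7, with 0.0647 without JQ1 replicate 1 and 0.102, 0.0932 and 0.121 without DMSO replicates 1, 2 and 3. In UPCI-SCC-090 neither passed, at 0.01 ± 0.27 for CSNK1D and 0.66 ± 0.25 for HDAC3 (adjusted p = 0.98 and 0.097). With GC correction both passed there, at 0.63 for CSNK1D (adjusted p = 0.00391) and 0.94 for HDAC3 (adjusted p = 0.00561), and HDAC3 also passed in 1 fit over all 12 libraries (0.0393).

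**Figure D5:**
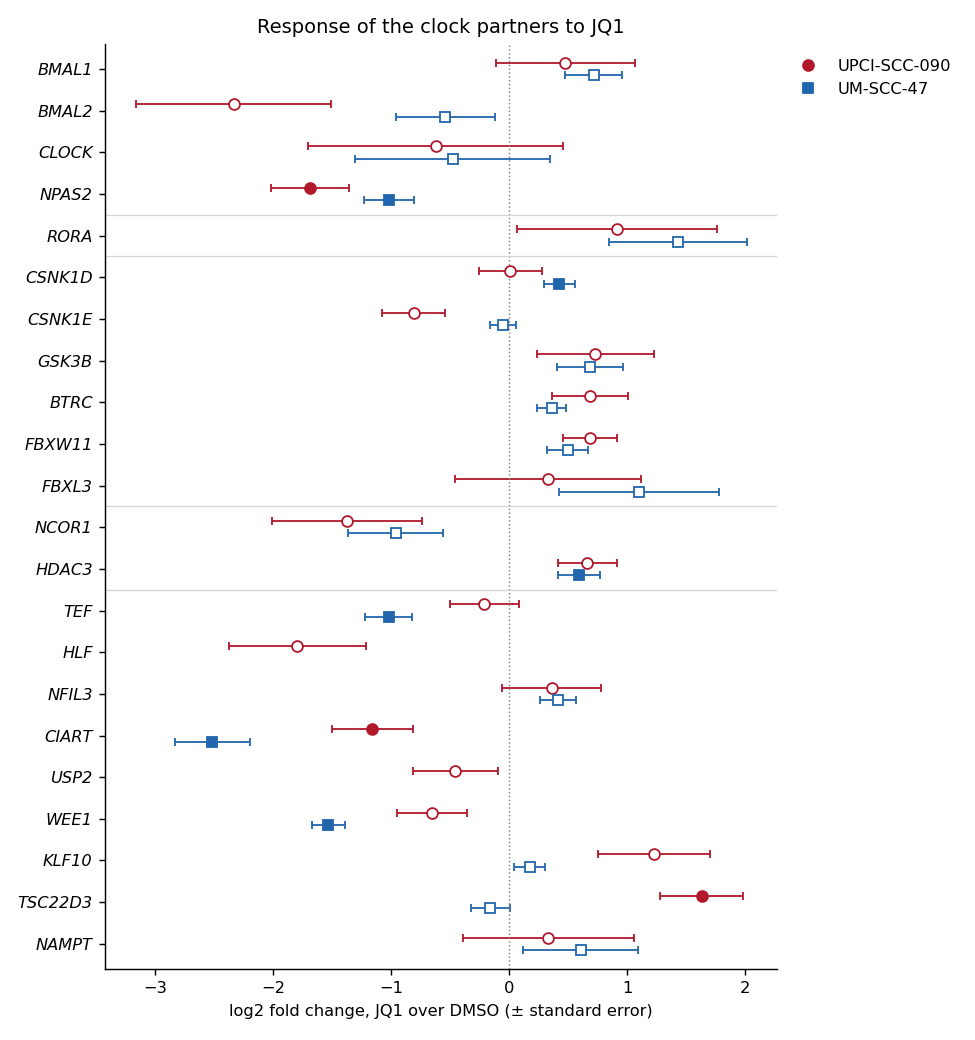
Log2 fold change of the tested partners, JQ1 over DMSO, with bars of 1 standard error, for UPCI-SCC-090 (circles) and UM-SCC-47 (squares), by role. Filled marks passed an adjusted p of 0.05, as NPAS2 and CIART did in both lines, and HLF and USP2 were tested in UPCI-SCC-090 alone.

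BMAL1, the gene that REV-ERB receptors repress, is named here after its values were seen and outside the rule for naming partners, since neither line called it. A link between NR1D1 and BMAL1 was not tested, and NR1D2 gave no readable response. Of the 2 RefSeq windows of BMAL1, 1 holds a ROR element, in capitals, shown because NR1D1 fell in both lines.
BMAL1 ROR element, chr11:13277807-13277836, plus strand: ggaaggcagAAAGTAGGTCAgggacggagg
BMAL1 had 32.6, 10.4 and 30.8 CPM in UPCI-SCC-090 with JQ1, against 25.2, 11.8 and 13.2 CPM with DMSO, and the groups overlapped. In UM-SCC-47 it had 10.999, 10.8 and 14.6 CPM with JQ1, against 6.70, 6.02 and 9.25 CPM with DMSO, and they did not. The log2 fold change was 0.48 ± 0.59 (adjusted p = 0.61) in UPCI-SCC-090 and 0.72 ± 0.24 (adjusted p = 0.053) in UM-SCC-47, so that neither passed. The value in UM-SCC-47 passed in 7 of 16 alternatives, among them those with RLE size factors (0.86, adjusted p = 0.0238) and with GC correction (0.79, adjusted p = 0.00623), and without DMSO replicate 3 (0.0466) or JQ1 replicate 2 (0.0475). BMAL2 and HLF, also called in neither line, passed as lower in 7 and 8 of 16 alternatives in UPCI-SCC-090.

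The pattern of BHLHE41 over the 12 libraries, high in UM-SCC-47 with DMSO and near 0 elsewhere, had close company. Among 14396 genes, the Pearson r of log2 CPM with BHLHE41 was among the highest for TFF2, LINC01559, KCNK2 and AOAH, at 0.994 to 0.995. These points are libraries of 4 groups that share a line or a treatment, and the r is given as a description. LINC01559, the most abundant of these in UM-SCC-47 with DMSO, averaged 0.0404 CPM in UPCI-SCC-090 with JQ1, 0.216 CPM in UPCI-SCC-090 with DMSO, 0.274 CPM in UM-SCC-47 with JQ1 and 22.0 CPM in UM-SCC-47 with DMSO. TFF2, a trefoil peptide of mucous epithelia, averaged 0.0187 CPM in UM-SCC-47 with JQ1 and 0.567 CPM with DMSO, and was at 0 in UPCI-SCC-090.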

How the data were processed

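RNA was extracted with a mirVana kit, depleted of ribosomal RNA and made into stranded libraries, and each repeat was run on 2 lanes that the deposited table holds as 1 column. The authors quantified transcripts with Salmon (0.8.2 in the submitters' processing notes) and deposited estimated counts per gene. Build and annotation of the index were not given in the sources used here. Estimated counts were rounded to whole numbers. Gene positions, GC content and exon length came from GENCODE 44 lifted to GRCh37, in which 20015 gene IDs were found and 723 were not.

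Each line was tested with edgeR 4.0.16 in R 4.3.3 (quasi-likelihood F test, TMM factors, filterByExpr with a minimum count of 10 and a minimum total of 15), with treatment as the term. Difference between the lines was the interaction over 12 libraries. P-values were adjusted by Benjamini-Hochberg over all genes tested, with a threshold of 0.05. Standard errors are the log2 fold change divided by the root of F. CPM used TMM factors over all 12 libraries. Alternatives were RLE, upper-quartile and library-size scaling, no filter, DESeq2 1.42.0, 1 fit over all libraries, a replicate block, a GC correction (a smooth trend of log2 CPM on GC content, taken out of each library), omission of the 3 libraries of the steepest GC trends, and omission of each library in turn. In UM-SCC-47 the fit without the steep libraries is the same as that without JQ1 replicate 3. For the lines with DMSO it is the same as that without UPCI-SCC-090 DMSO replicate 2. Each is counted under both names among the alternatives. The scripts were tested on simulated data. Intervals of count ratios are exact conditional binomial intervals. The total counts give precision for counting error only. Replicate libraries differed by more than sampling noise and all were kept.

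The members, the 24 partners and the libraries named for steep trends were chosen with earlier results of these data known. All members are named. A partner is named if 1 line or both called it and its higher group averaged 1 CPM or more. BMAL1, BMAL2, CLOCK and HLF are described outside this rule. The genes most like BHLHE41 are the 5 of highest r, of which 1 is not reported here. Stretches of promoters came from RefSeq on GRCh38.p14.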

Additional observations from a re-analysis of the deposited data

Results flagged for a closer look

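The response to JQ1 differed between the lines for 1 of 9 members and 1 of 22 tested partners. By the same interaction test over 12 libraries, 6.56% of all 14396 genes differed. The log2 response of BHLHE40 was 1.14 ± 0.25 higher in UPCI-SCC-090 (SE, edgeR adjusted p = 0.020). That of TSC22D3 was 1.89 ± 0.41 higher there (edgeR adjusted p = 0.020). Both calls were lost when any 1 of the 3 UM-SCC-47 DMSO libraries, or UM-SCC-47 JQ1 replicate 1, was left out, with adjusted p of 0.0565 to 0.0701 for BHLHE40 and of 0.0551 to 0.0649 for TSC22D3. The part of the libraries' GC trends in either was not tested beyond the fits with GC correction and without the steep libraries. With GC correction the difference of BHLHE40 was 1.14 (adjusted p = 4.6e-04), but its call was lost without the steep libraries. The call of TSC22D3 held in both fits.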

How the results depend on the processing

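Of the 9 members other than BHLHE41, 3 were called in UPCI-SCC-090, against 7 with GC correction and 7 with GC correction and replicate block, and 0 to 3 when 1 library was left out. Of all genes there, 20.4% were lower and 7.67% higher. These shares were 23.8% and 26.3% with GC correction, and 24.2% and 26.3% with the block added. In UM-SCC-47 6 were called, and 5 to 7 when 1 library was left out. The difference between the lines was called for 1 member, for 0 with RLE size factors or without the steep libraries, for 3 with GC correction, for 3 with GC correction and block, and for 0 to 2 when 1 library was left out. For this difference 3.63% of all genes were lower and 2.93% higher. The shares were 9.82% and 8.75% with GC correction, and 8.48% and 7.56% with the block added. With DMSO 3 members differed, 5 with GC correction and block, and 1 to 4 when 1 library was left out. Of all genes, 31.6% were lower and 30.6% higher with GC correction and block, against 25.3% and 22.7% without either. DBP in UPCI-SCC-090 turned sign and passed, at 0.60 with GC correction and 0.60 with the block added. Of 637 alternative values of members, 542 kept direction and side of the threshold, 25 turned sign with no call in either fit (6 of DBP and 2 of NR1D2 in UPCI-SCC-090, 5 of PER1 and 2 of NR1D2 in UM-SCC-47, and 10 of differences between the lines), 36 lost the call, 29 gained it, 2 reversed and 3 moved, the last all of BHLHE41. The 2 turns of NR1D2 in UM-SCC-47 are 1 fit counted 2 times, that without JQ1 replicate 3. The cause of these changes was not tested. GC correction takes out any trend that differs between JQ1 and DMSO libraries along with the rest.

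Same-numbered JQ1 and DMSO libraries deviated from their group means with r of 0.0954, 0.789 and 0.207 in UPCI-SCC-090 and −0.147, 0.199 and 0.429 in UM-SCC-47. Not every library correlated best with its own number: JQ1 replicate 3 of UPCI-SCC-090 had an r of 0.793 with DMSO replicate 1. With 3 libraries a group, these values can neither show nor exclude a pairing by number. With the replicate block alone, 3 members were called in UPCI-SCC-090, 5 in UM-SCC-47, 2 for the difference between the lines and 2 with DMSO. In that order, the shares of all genes lower and higher were 23.9% and 10.3%, 25.7% and 16.1%, 4.48% and 3.18%, and 25.5% and 20.4%.

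Scaling moved the balance of calls over all genes. In UPCI-SCC-090 2680 were lower and 1009 higher, against 1755 and 1287 with RLE, 3069 and 635 with library size only, 2023 and 1474 with DESeq2 and 3136 and 3460 with GC correction. In UM-SCC-47 3431 were lower and 2163 higher, against 2846 and 2622 with RLE, 4589 and 1456 with library size only, 2759 and 2838 with DESeq2, 3399 and 3525 with GC correction and 2489 and 1348 in 1 fit over all libraries. For the difference between the lines, 523 lower and 422 higher calls became 1413 and 1259 with GC correction and 326 and 299 without the steep libraries. The shift of the median of all genes was 0.28 in UPCI-SCC-090 and 0.15 in UM-SCC-47 with RLE, and −0.24 and −0.25 with library size only. In UPCI-SCC-090, where BHLHE41 had 0 to 2 counts a library, depth limits any statement on its response.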
